A study of Mus musculus with 12 samples.

Results

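The genes described here are Ddo and 9 neighbours that lie with it near Lama4 on mouse chromosome 10: Amd1, Fyn, Traf3ip2, Rev3l, Slc16a10, Rpf2, Cdk19, Tube1 and Hdac2. They are 10 of the 20347 gene entries in the deposited count table, chosen by symbol among the genes within 2 Mb of Lama4. Lama4 encodes laminin alpha 4, a chain of the laminins in vessel basement membranes. The list was drawn up with the genotype differences of Ddo and Amd1 in view, so the genotype values of all 10 genes are a description, with no p-value for any of them. Counts of them that pass a test over all genes stand only beside the share of all genes that do. The rule for that choice names nearness to Lama4 and levels over the 4 groups of genotype by hemisphere. It names no change between hemispheres, and these changes are tested. Earlier results of these data were known when the choice was made, so independence of those p-values from the choice is not assured.

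Bulk RNA was measured in brain hemispheres of male wild-type (WT) and Lama4-/- mice, 12 weeks old, under a study title about basement membrane laminins and the zonation of brain microvessels. In all mice of both genotypes the left middle cerebral artery was closed with an intraluminal filament for 60 min, followed by 24 h of reperfusion. The ipsilateral hemisphere carries the stroke, and the contralateral hemisphere of operated mice is the control, so no group comes from an unoperated brain. Each of the 4 groups has 3 libraries, made from pooled hemispheres of 2 mice each. Whether both hemispheres of a mouse were used is only inferred, as described with the processing, so the number of mice is not settled. The mice were perfused with PBS and lost olfactory bulb and cerebellum before homogenization. The labels name the genotypes only, without a strain or a description of the Lama4 allele. Because whole hemispheres were homogenized, fewer cells of a type and less RNA per cell cannot be told apart in any value below.

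The libraries held 27537167 to 44113824 counted reads. Levels are given as CPM, read counts scaled to a common library size, after TMM scaling, which corrects library sizes for composition. Lama4 itself stood at 7.47 to 14.8 CPM over the 6 WT libraries and at 0.206 to 0.797 CPM over the 6 Lama4-/- libraries, as their labels require. Neuronal, astrocyte and oligodendrocyte markers were abundant in every library, and the summed level of 3 blood cell markers stayed between 2.63 and 5.38 CPM.

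Several of these genes act in brain chemistry that has been studied in stroke. Ddo, D-aspartate oxidase, is a peroxisomal flavoenzyme that breaks down D-aspartate, an amino acid that activates NMDA-type glutamate receptors. Amd1, S-adenosylmethionine decarboxylase, makes the aminopropyl donor from which spermidine and spermine are built. Fyn is a Src family kinase that phosphorylates NMDA receptor subunits and acts in myelination, and Slc16a10 is a facilitative transporter of aromatic amino acids and thyroid hormones. Traf3ip2 encodes Act1, the adaptor of interleukin 17 receptors. Hdac2, a class I histone deacetylase, and Cdk19, a kinase of the Mediator complex, act in transcription. Rev3l is the catalytic subunit of DNA polymerase zeta, Rpf2 helps to bring the 5S ribonucleoprotein into the large ribosomal subunit, and Tube1 is epsilon-tubulin of the centriole.

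In the GENCODE M21 annotation of mm10, Lama4 spans chr10:38965515-39110188 on the plus strand. Only Hdac2 lies before it, at chr10:36974544-37001889 (plus strand), 1.96 Mb away. Tube1 lies closest after it, at chr10:39133976-39152542 (plus), and Fyn follows at chr10:39368855-39565381 (plus). Traf3ip2 at chr10:39612934-39655307 and Rev3l at chr10:39732118-39875211 are also on the plus strand. Slc16a10 at chr10:40033532-40142258, Rpf2 at chr10:40223246-40247036 and Amd1 at chr10:40287458-40302186 are on the minus strand. Cdk19 at chr10:40339564-40483818 (plus) and Ddo at chr10:40630011-40681847 (plus) are the farthest after Lama4, with Ddo 1.52 Mb from its end. Exons of Tube1 overlap those of Ccn6 on the opposite strand, and exons of Traf3ip2 and Cdk19 overlap the antisense genes E130307A14Rik and Cdk19os. Whether counting used strand is not stated in the labels, and without it the reads of such pairs cannot be told apart.

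The promoters of Ddo, Amd1 and Slc16a10 are shown, as 3 of the 7 that matched by symbol: Ddo and Amd1 for their genotype differences and Slc16a10 for its stroke change. Cdk19, Traf3ip2 and Rev3l were not matched. Each line gives the 250 bases before the start site from RefSeq (build GRCm38.p6), 5′ to 3′ on the gene's own strand, for Ddo at chr10:40629761-40630010 (plus), for Amd1 at chr10:40302189-40302438 (minus) and for Slc16a10 at chr10:40142255-40142504 (minus). Capitals mark matches, on either strand, to 5 motifs that were searched: the TATA box TATAAA, the CCAAT box CCAAT, the GC box GGGCGG, the E-box CACGTG and the cyclic AMP response core TGACG.
Ddo promoter: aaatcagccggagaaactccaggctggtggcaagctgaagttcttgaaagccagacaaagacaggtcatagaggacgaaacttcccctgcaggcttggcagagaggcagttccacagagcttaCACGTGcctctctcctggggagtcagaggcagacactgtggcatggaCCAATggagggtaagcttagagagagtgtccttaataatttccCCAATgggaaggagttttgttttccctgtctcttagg
Amd1 promoter: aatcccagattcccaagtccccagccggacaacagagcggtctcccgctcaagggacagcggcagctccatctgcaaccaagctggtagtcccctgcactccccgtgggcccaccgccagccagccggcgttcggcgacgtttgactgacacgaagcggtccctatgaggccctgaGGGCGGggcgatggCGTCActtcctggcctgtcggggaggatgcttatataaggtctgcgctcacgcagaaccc
Slc16a10 promoter: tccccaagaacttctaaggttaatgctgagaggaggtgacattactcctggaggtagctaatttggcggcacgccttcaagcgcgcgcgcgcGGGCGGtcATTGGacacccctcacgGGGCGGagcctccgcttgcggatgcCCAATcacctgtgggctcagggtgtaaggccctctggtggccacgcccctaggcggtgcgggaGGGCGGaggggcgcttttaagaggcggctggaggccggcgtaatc
The Ddo promoter held 3 CG dinucleotides, against a median of 6 over 32851 promoters of the same length, and a GC content of 51.2%. Amd1 held 19 CG dinucleotides at a GC content of 64.4%, and Slc16a10 held 21 at the same GC content. The other matched promoters, of Fyn, Rpf2, Tube1 and Hdac2, held 15 to 27 CG dinucleotides, so Ddo was the lowest of the 7 genes that matched by symbol. The Ddo window held CCAAT at positions -80 and -37 before the start site and CACGTG at -127. CCAAT occurred in 33.8% of all promoters and CACGTG in 6.02%. The Amd1 window held GGGCGG at -74 and TGACG on its minus strand at -60, motifs present in 32.7% and 17.8% of promoters. Slc16a10 held GGGCGG 3 times and CCAAT, on both strands together, 2 times. No exact TATAAA, which occurred in 12.4% of promoters, was in the windows of these 3 genes, and no motif searched overlapped another. Variants of the TATA box were not searched, and the Amd1 window holds the similar run tatataagg near the start site. A match describes letters in a window and is not a binding site.

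Ddo was higher in every Lama4-/- library than in any WT library, by about 2-fold in both hemispheres. In the contralateral hemisphere the 3 WT libraries stood at 7.60, 5.92 and 5.83 CPM, and the 3 Lama4-/- libraries stood at 14.0, 12.0 and 12.6 CPM. In the ipsilateral hemisphere WT stood at 5.47, 6.02 and 5.31 CPM and Lama4-/- at 9.81, 12.95 and 12.3 CPM. The highest WT value was thus below the lowest Lama4-/- value across all 12 libraries. The group means were 6.45 ± 0.997 and 12.9 ± 1.04 CPM (SD, n = 3) contralaterally, and 5.60 ± 0.374 and 11.7 ± 1.65 CPM (SD, n = 3) ipsilaterally. Over both hemispheres the Lama4-/- mean was 2.04 times the WT mean. The fitted log2 fold change of Lama4-/- over WT was 0.99 ± 0.13 (SE) contralaterally and 1.06 ± 0.13 (SE) ipsilaterally, and the authors' deposited table gives 0.99 and 1.06. With any 1 library left out the log2 fold change stayed between 0.91 and 1.12 contralaterally and between 0.98 and 1.17 ipsilaterally. In raw reads Ddo rested on 157 to 263 counts in the WT libraries and 368 to 540 in the Lama4-/- libraries. The summed level of 5 choroid plexus markers, which depends on the dissection, stood at 526 to 667 CPM in WT and 573 to 868 CPM in Lama4-/- contralaterally. Ipsilaterally it stood at 412 to 640 and 571 to 786 CPM. The ranges overlapped, with both ends higher in Lama4-/-. The median log2 fold change of these markers was 0.00 contralaterally and 0.38 ipsilaterally. Their part in the Ddo difference was not tested.

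Amd1 was lower in Lama4-/- libraries in both hemispheres. Contralaterally it stood at 44.0, 39.0 and 42.4 CPM in WT and at 29.7, 31.6 and 33.2 CPM in Lama4-/-. Ipsilaterally it stood at 36.6, 32.4 and 39.3 CPM in WT and at 25.6, 23.9 and 28.0 CPM in Lama4-/-. The genotypes did not overlap within a hemisphere, but the highest contralateral Lama4-/- library lay above the lowest ipsilateral WT library. The means were 41.8 ± 2.58 and 31.5 ± 1.75 CPM (SD, n = 3) contralaterally and 36.1 ± 3.48 and 25.8 ± 2.10 CPM (SD, n = 3) ipsilaterally. The fitted log2 fold change was -0.42 ± 0.08 (SE) and -0.48 ± 0.10 (SE), and the authors' deposited table gives -0.42 and -0.48. Amd1 shares most of its sequence with Amd2, a copy 3.25 Mb before Lama4: in GENCODE M21 the longest coding transcripts, of 3204 and 3218 bases, were identical at 3190 aligned positions (99.6% of the Amd1 transcript). Amd2 was counted at no more than 0.385 CPM in any library. The labels do not say how reads that match both genes were counted, so the level of Amd1 is uncertain.

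**Figure D1:**
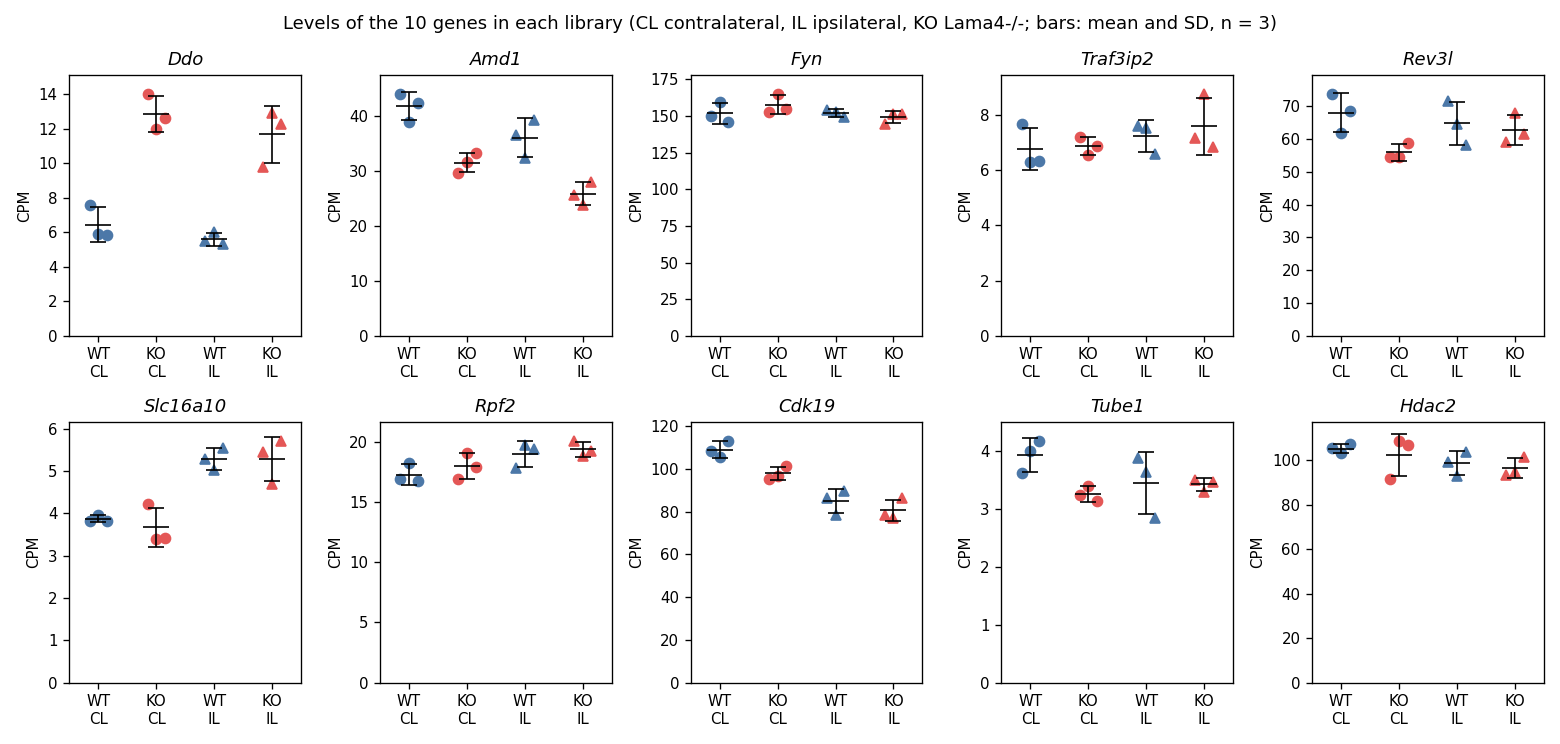
CPM (vertical axis, from 0) of each of the 10 genes in the 3 libraries of each group, with circles for contralateral and triangles for ipsilateral hemispheres, blue for WT and red for Lama4-/-. Black bars give the mean and SD. Ddo separates by genotype in both hemispheres, Amd1 does so within each hemisphere, and Slc16a10 and Cdk19 separate by hemisphere.

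The other 8 genes showed smaller genotype differences. Rev3l stood at 73.7, 62.0 and 68.5 CPM in contralateral WT and at 54.4, 54.5 and 58.8 CPM in contralateral Lama4-/- libraries, with no overlap and a log2 fold change of -0.29 ± 0.08 (SE). Ipsilaterally its ranges overlapped, at 58.1 to 71.5 CPM in WT and 59.1 to 68.0 CPM in Lama4-/- (-0.04 ± 0.09, SE). Cdk19 stood at 109, 106 and 113 CPM in contralateral WT and at 95.5, 96.9 and 101 CPM in contralateral Lama4-/- libraries, a log2 fold change of -0.17 ± 0.06 (SE). Its ipsilateral genotype ranges overlapped, with -0.08 ± 0.08 (SE). Tube1, at 3.61 to 4.17 CPM in contralateral WT, stood at 3.13 to 3.39 CPM in contralateral Lama4-/- libraries (-0.28 ± 0.13, SE), and it overlapped ipsilaterally (-0.01 ± 0.16, SE). For these 3 genes the difference between hemispheres in the genotype effect, the interaction term given below, did not pass its test. Fyn, Traf3ip2, Slc16a10, Rpf2 and Hdac2 overlapped between genotypes in both hemispheres, with log2 fold changes from -0.08 to 0.07.

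Libraries of the 2 genotypes did not overlap for 5 of the 10 genes contralaterally, where this held for 15.9% of all genes tested, and for 2 of the 10 ipsilaterally, where it held for 8.02%. Across all 12 libraries Ddo was among the 46 genes without overlap, 0.3% of those tested. On chromosome 10, 6 of 734 tested genes met this, and Ddo and Lama4 were joined by Lama2, Col10a1, Ilvbl and Pym1. In edgeR's quasi-likelihood test, adjusted over all genes, 0 of the 10 genes were called in either hemisphere, beside 0.0134% and 0.00658% of all genes (called means an adjusted p under 0.05). At an unadjusted p under 0.05, edgeR and limma-voom each listed 4 of them contralaterally and 2 ipsilaterally, and limma-voom called 0. Over all genes edgeR listed 1422 of 14958 contralaterally and 531 of 15208 ipsilaterally, and limma-voom listed 1548 and 550. DESeq2 called 2 of the 10 genes, Ddo and Amd1, in each hemisphere, beside 0.114% and 0.145% of all genes. These counts describe genes picked on the same contrast and support nothing further. The median log2 fold change of the 10 genes was -0.07 contralaterally, against 0.01 over all genes, and -0.02 ipsilaterally, against 0.00.

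The genotype difference did not fall off evenly with distance from Lama4. Tube1, the closest of the 10, and Fyn, 0.259 Mb away, lay nearer than Ddo and Amd1, which stand 1.52 and 1.18 Mb after Lama4. Cdk19 lies between Amd1 and Ddo, and Rpf2 lies on the other side of Amd1, with Gtf3c6 between them. Rpf2 had a log2 fold change of 0.05 ± 0.08 (SE) contralaterally and 0.03 ± 0.08 (SE) ipsilaterally. Gtf3c6 had 0.03 ± 0.09 (SE) and 0.00 ± 0.08 (SE). Of all genes within 2 Mb, 22 had an entry besides Lama4 and 19 were tested. Their median absolute log2 fold change was 0.15 contralaterally and 0.07 ipsilaterally, beside 0.11 and 0.07 over all genes. The nearest tested genes that are not among the 10 were Fam229b after Lama4, at 0.08 ± 0.15 (SE) and -0.13 ± 0.10 (SE), and Marcks before it, at -0.22 ± 0.08 (SE) and -0.18 ± 0.13 (SE). Hdac2, just inside the 2 Mb limit, had log2 fold changes of -0.05 and -0.03, and the nearest tested genes outside it, Hs3st5 at 2.13 Mb before and Fig4 at 2.08 Mb after Lama4, had -0.02 and -0.08, and 0.04 and 0.06.

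**Figure D2:**
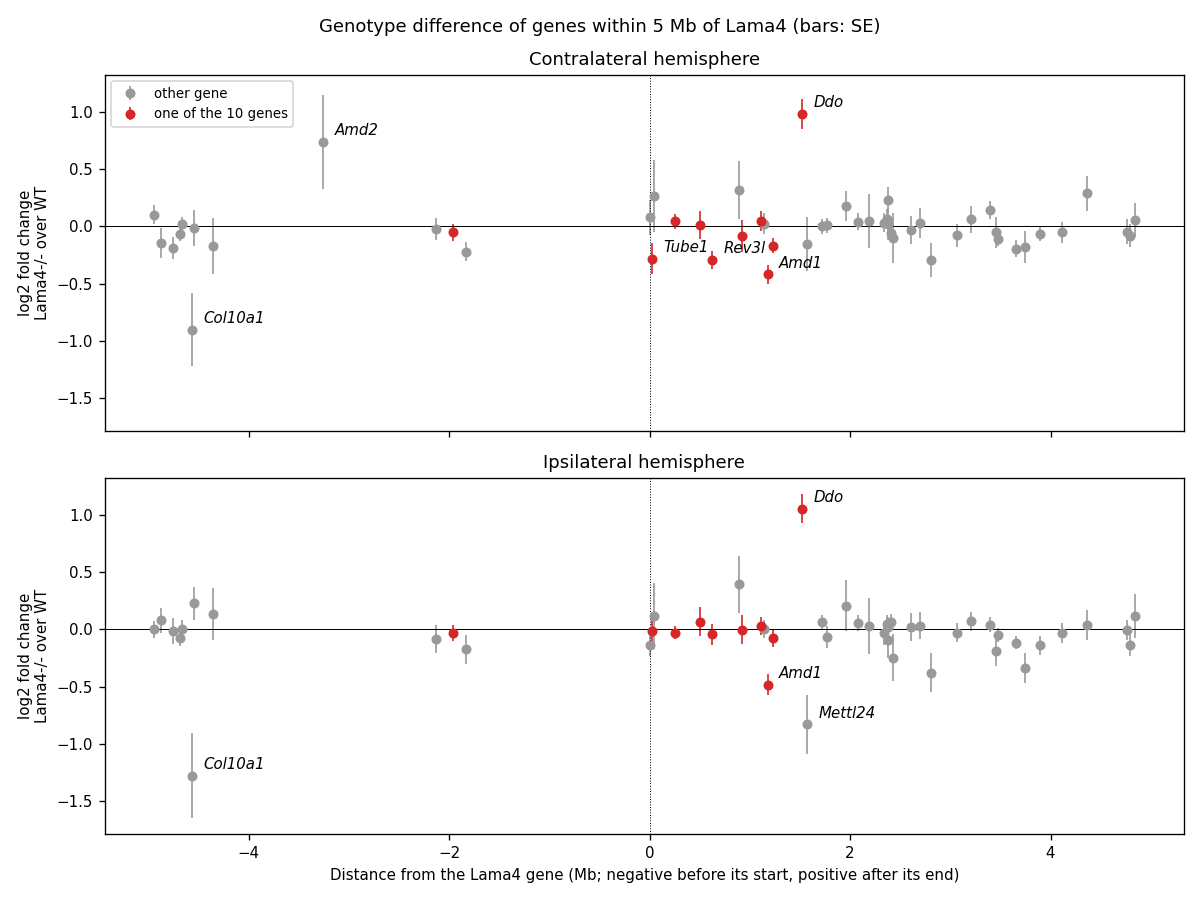
Log2 fold change of Lama4-/- over WT with its SE (vertical axis) against distance from Lama4 in Mb (horizontal axis) for the genes tested within 5 Mb, Lama4 left out, in the contralateral (top) and ipsilateral (bottom) hemisphere. Red points are the 10 genes and grey points the others. Ddo stands near 1 in both panels and Amd1 below -0.4, while Tube1 and Rev3l lie near -0.3 in the top panel and near 0 in the bottom one. The labelled grey genes, Col10a1, Amd2 and Mettl24, are sparsely counted.

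Along the whole chromosome, 612 genes with a mean log2 CPM of at least 1, Lama4 left out, were ranked by the size of their mean genotype difference over both hemispheres. Ddo ranked 2, at 1.02, and Amd1 ranked 4, at -0.45. Egr2 and Dusp6 were the other genes beyond 0.4, a limit picked after the values were seen, and lie 10 to 40 and 40 to 100 Mb after Lama4. Between 40 and 2 Mb before Lama4, and from 2 to 10 Mb after it, 0 genes passed that limit. Over the 12965 genes at this level on all chromosomes Ddo ranked 10 and Amd1 ranked 79. The list was drawn up with these differences of Ddo and Amd1 in view, so their ranks are a description and support nothing further. Rev3l ranked 97 on chromosome 10, Tube1 139 and Cdk19 194, and the other 5 genes ranked between 431 and 573.

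**Figure D3:**
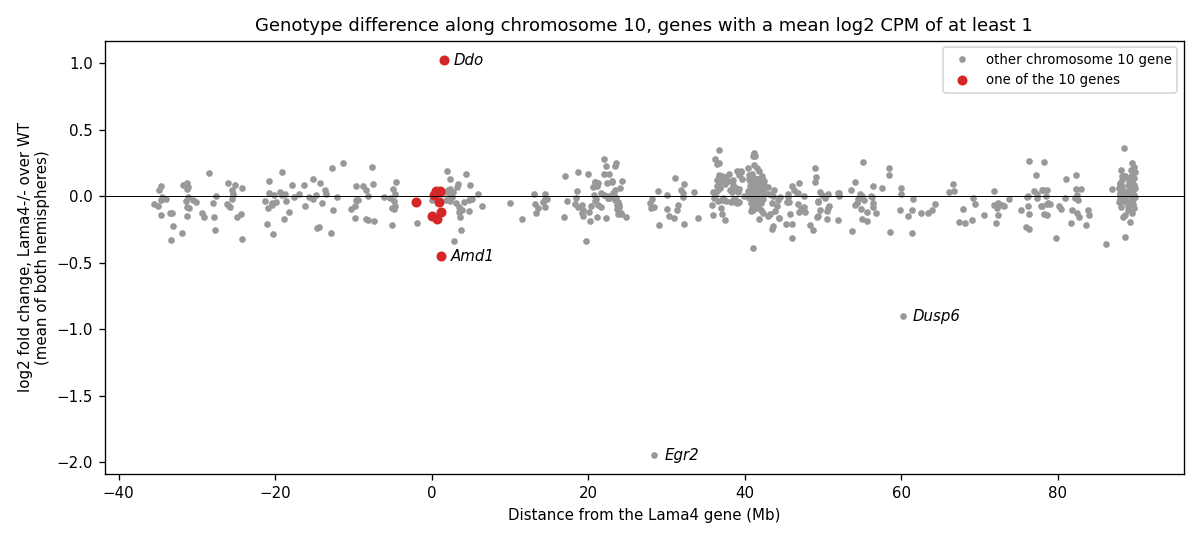
Mean log2 fold change of Lama4-/- over WT over both hemispheres (vertical axis) for 612 chromosome 10 genes against distance from Lama4 in Mb (horizontal axis), with the 10 genes in red. Ddo at 1.02 is the highest point, Amd1 at -0.45 is the only other gene within 2 Mb beyond 0.4 in size, and Egr2 and Dusp6 lie far away.

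The Ddo pattern was compared with that of every other gene by the Pearson correlation of log2(CPM + 1) over the 12 libraries, among 13104 genes. The 5 most alike were Pcdhga7 (r = 0.93), Ptgr2 (0.84), Mr1 (0.84), Lama2 (0.83) and Pcdhgb4 (0.82). Pcdhga7 and Pcdhgb4 are clustered protocadherins on chromosome 18, and Lama2, the laminin alpha 2 chain, lies on chromosome 10. Lama2 averaged 17.8 CPM in WT and 21.2 CPM in Lama4-/- libraries, and Pcdhga7 12.1 and 15.4 CPM. The libraries share their genotype split, and the correlation carries no test.

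In the fit without a replicate block Slc16a10 rose and Cdk19 fell in both genotypes, and Amd1 was called lower in Lama4-/- only. With the pool as a replicate block, which pairs hemispheres of the same replicate number, Amd1 was called lower in both genotypes. Its edgeR adjusted p was then 0.0369 in WT and 0.0081 in Lama4-/-. Without the block, 2 of the 10 genes changed in WT, 1 in each direction, beside 15.4% of all genes (9.91% higher and 5.47% lower). In Lama4-/-, 3 changed, 1 higher and 2 lower, beside 23.3% (12.8% higher and 10.5% lower). Both shares are near the background of these comparisons, so the number of changed genes says nothing about the 10 as a set. Libraries of the 2 hemispheres did not overlap for 2 of the 10 genes in WT, where this held for 38.6% of all genes, and for 5 in Lama4-/-, where it held for 35.5%. Their median log2 fold change was -0.08 in WT, against 0.01 over all genes, and 0.00 in Lama4-/-, against -0.01.

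Slc16a10, the aromatic amino acid transporter, stood at 3.81, 3.96 and 3.82 CPM in the contralateral and at 5.28, 5.01 and 5.55 CPM in the ipsilateral WT libraries. In Lama4-/- it stood at 4.21, 3.39 and 3.40 CPM contralaterally and at 5.43, 4.69 and 5.71 CPM ipsilaterally. Every ipsilateral library lay above every contralateral one. The log2 fold change was 0.45 ± 0.13 (SE) in WT with an edgeR adjusted p of 0.0294, and 0.52 ± 0.13 (SE) in Lama4-/- with an adjusted p of 0.0096. The WT call rested on every library: with any 1 of the 6 WT libraries left out the adjusted p rose to between 0.0515 and 0.0980. The log2 ratio of same-numbered libraries was positive in 3 of 3 pairs of each genotype. The summed level of 3 endothelial markers stood at 80.2 to 90.7 CPM contralaterally and 104 to 153 CPM ipsilaterally in WT, and at 81.0 to 97.6 and 120 to 170 CPM in Lama4-/-. Its part in the Slc16a10 change was not tested.

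Cdk19, a kinase that can replace Cdk8 in the Mediator kinase module, fell after stroke. In WT it stood at 109, 106 and 113 CPM contralaterally and at 86.3, 78.5 and 89.6 CPM ipsilaterally. In Lama4-/- it stood at 95.5, 96.9 and 101 CPM contralaterally and at 78.2, 77.2 and 86.3 CPM ipsilaterally. The hemispheres did not overlap in either genotype. The log2 fold change was -0.36 ± 0.07 (SE) in WT with an edgeR adjusted p of 0.0027, and -0.28 ± 0.07 (SE) in Lama4-/- with an adjusted p of 0.0085. The summed level of 3 neuronal markers stood at 3767 to 4307 CPM contralaterally and 3422 to 3606 CPM ipsilaterally in WT, and in Lama4-/- the ranges overlapped, at 3410 to 4213 and 3079 to 3755 CPM. The part of this in the Cdk19 change was not tested.

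Amd1, shown above library by library, had a stroke log2 fold change of -0.28 ± 0.09 (SE) in Lama4-/- with an edgeR adjusted p of 0.0317. The call was lost at an adjusted p of 0.0675 when only the 6 Lama4-/- libraries were fitted. It was also lost without contralateral replicate 2 (0.0706) or 3 (0.106) and without ipsilateral replicate 1 (0.0883) or 2 (0.112) of Lama4-/-. In WT the log2 fold change was -0.21 ± 0.09 (SE) with an adjusted p of 0.118. With the pool as a replicate block, which pairs hemispheres of the same replicate number, the WT change kept its size (-0.21). It was then called, at an edgeR adjusted p of 0.0369, in a fit that called 23.5% of all genes. The ipsilateral library was the lower in 3 of 3 same-numbered pairs of each genotype.

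**Figure D4:**
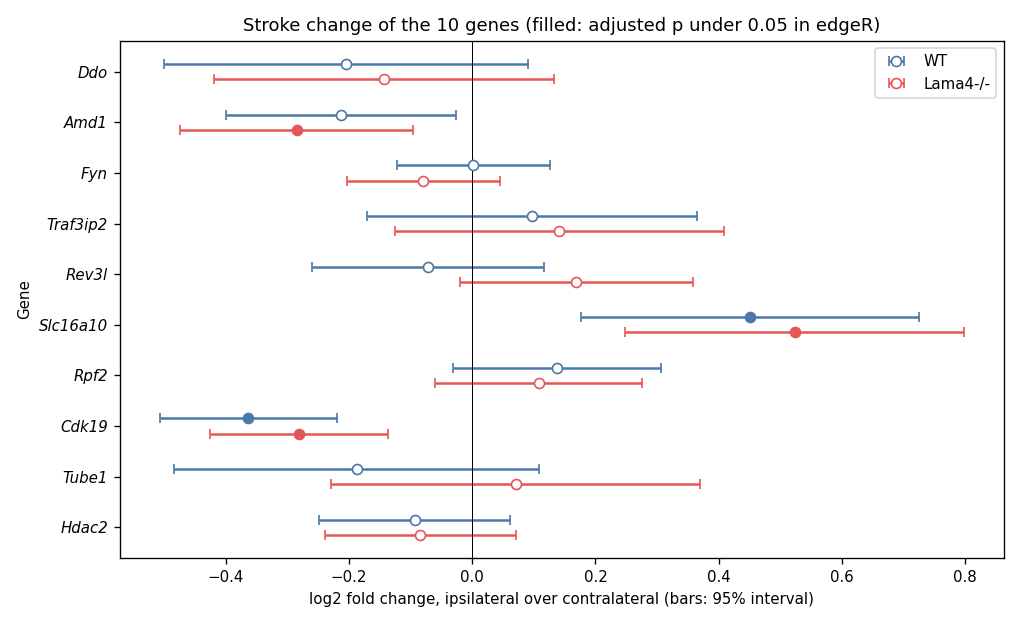
Log2 fold change of the ipsilateral over the contralateral hemisphere with its 95% interval (horizontal axis) for the 10 genes (vertical axis) in WT (blue) and Lama4-/- (red). Filled points passed an adjusted p of 0.05 in edgeR without a replicate block: Slc16a10 to the right in both genotypes, Cdk19 to the left in both, and Amd1 to the left in Lama4-/-. With the pool as a replicate block Amd1 was also called in WT.

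The other 7 genes did not pass the stroke test in either genotype. Ddo had -0.20 ± 0.14 (SE; 95% interval -0.50 to 0.09) in WT and -0.14 ± 0.13 (SE; -0.42 to 0.13) in Lama4-/-, so a fall of up to 0.50 on the log2 scale in WT is within its interval. Its log2 ratios of same-numbered libraries differed in sign, with 1 of 3 pairs higher in each genotype. Rev3l had -0.07 ± 0.09 (SE) in WT and 0.17 ± 0.09 (SE) in Lama4-/-. Tube1 had -0.19 ± 0.14 (SE) and 0.07 ± 0.14 (SE). Hdac2 had -0.09 ± 0.07 (SE) and -0.08 ± 0.07 (SE), and Rpf2 had 0.14 ± 0.08 (SE) and 0.11 ± 0.08 (SE). Fyn, at 146 to 160 CPM over the 6 WT and 145 to 165 CPM over the 6 Lama4-/- libraries, had 0.00 ± 0.06 (SE) and -0.08 ± 0.06 (SE), and its sign in WT was negative with RLE scaling and in DESeq2. Traf3ip2 had 0.10 ± 0.12 (SE) and 0.14 ± 0.12 (SE).

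The stroke change did not differ detectably between genotypes for any of the 10 genes. The interaction term was called for 0 of them and for 0.0% of all genes by edgeR, where 0 of the 10 and 244 of 15351 genes had an unadjusted p under 0.05. DESeq2 and limma-voom also called 0, with 237 and 271 genes at an unadjusted p under 0.05. The largest terms were those of Tube1, 0.26 ± 0.20 (SE; 95% interval -0.16 to 0.68), and Rev3l, 0.24 ± 0.12 (SE; -0.03 to 0.51). For Ddo it was 0.06 ± 0.19 (SE; -0.34 to 0.47) and for Amd1 -0.07 ± 0.12 (SE; -0.34 to 0.19), so the intervals leave room for differences of these sizes.

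Among the 12 other genes within 2 Mb, the stroke comparisons called Gpr6 in both genotypes and Wasf1 in Lama4-/-. Gpr6, an orphan receptor of striatal neurons, stood at 6.90, 7.24 and 8.34 CPM contralaterally and at 2.00, 2.59 and 3.27 CPM ipsilaterally in WT, and at 7.29, 9.35 and 9.07 CPM and at 3.48, 2.44 and 3.13 CPM in Lama4-/-. It fell in both (edgeR adjusted p = 0.00014 in WT and 8.93e-05 in Lama4-/-). The summed level of 4 striatal markers stood at 316 to 390 CPM contralaterally and 149 to 199 CPM ipsilaterally in WT, and at 375 to 456 and 143 to 223 CPM in Lama4-/-. Their part was not tested. Wasf1, which drives actin branching through the Arp2/3 complex, fell by 0.32 ± 0.08 (SE) in Lama4-/- (edgeR adjusted p = 0.0126), and its WT value was -0.24 ± 0.08 (SE; 0.0683), called at an adjusted p of 0.0329 with the pool as a replicate block. With Slc16a10, Cdk19 and Amd1, this makes 3 genes called of the 19 tested in WT, beside 15.4% of all genes, and 5 of 19 in Lama4-/-, beside 23.3%, so both shares are near the background. With the block, 2 of the 19 were called higher and 5 lower in WT.

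The partners of these 10 genes were read from a list for each, with the member itself left out. In the genotype comparisons 0 of the list genes were called by edgeR: 14 of 119 contralaterally and 2 of 120 ipsilaterally had an unadjusted p under 0.05. Over all genes those counts were 1422 of 14958 and 531 of 15208. DESeq2 called 1, the deiodinase Dio2, contralaterally, and limma-voom called 0. All changes that follow are stroke changes, ipsilateral over contralateral, called by edgeR at an adjusted p under 0.05. The counts stand beside 15.4% of all genes called in WT and 23.3% in Lama4-/-. With the pool as a replicate block 23.5% and 32.0% of all genes were called, and the blocked count is given for each list where it moved by more than 1.5 times.

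Around Ddo, 12 genes of D-amino acid metabolism and NMDA receptors were tested, and 2 fell in WT and 3 in Lama4-/-, with 0 higher. Grin1, the obligatory NMDA receptor subunit, fell by 0.26 ± 0.07 (SE) on the log2 scale in WT and by 0.44 ± 0.07 (SE) in Lama4-/-. Got1, the cytosolic aspartate aminotransferase, fell by 0.24 ± 0.08 (SE) and 0.31 ± 0.08 (SE). Got2, its mitochondrial counterpart, fell by 0.21 ± 0.06 (SE) in Lama4-/- and had -0.11 ± 0.06 (SE) in WT. The list's median log2 fold change was -0.21 in WT and -0.25 in Lama4-/-, against 0.01 and -0.01 over all genes. With 2 and 3 of 12 genes called, the shares are near the 15.4% and 23.3% of all genes. With the pool as a replicate block 5 of the 12 were called lower in each genotype. The summed neuronal markers were also lower ipsilaterally in WT, at 3422 to 3606 against 3767 to 4307 CPM, and overlapped in Lama4-/-, and the striatal markers were lower in both genotypes, with the values given beside Gpr6. The part of these markers in the falls was not tested.

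Around Amd1, 15 genes of polyamine metabolism were tested, of which 4 rose and 1 fell in WT and 3 rose and 4 fell in Lama4-/-. Odc1, the enzyme that makes putrescine, rose from 51.3 to 102 CPM in WT (log2 fold change 1.00 ± 0.14, SE) and from 51.7 to 121 CPM in Lama4-/- (1.23 ± 0.15, SE). Sat1, which acetylates spermidine and spermine for breakdown and export, rose by 0.42 ± 0.10 (SE) and 0.53 ± 0.10 (SE). Arg1, which makes the ornithine that Odc1 uses, rose from 0.207 to 1.57 CPM in WT (2.97 ± 0.76, SE). In Lama4-/- it rose from 0.211 to 4.71 CPM (4.42 ± 0.68, SE). Its ipsilateral libraries overlapped between genotypes, and its interaction term was not called (1.44 ± 1.18, SE; 95% interval -1.13 to 4.02). The summed level of 4 infiltrating leukocyte markers stood at 0.985 to 1.35 CPM contralaterally over both genotypes. Ipsilaterally it stood at 2.47 to 3.30 CPM in WT and at 2.15 to 14.7 CPM in Lama4-/-. Of the 3 markers tested, 0 were called after stroke in WT and 3 were called higher in Lama4-/-. Their part in the Arg1 change was not tested. The spermine synthase Sms fell in both genotypes, and Srm, the spermidine synthase, rose in WT. The antizyme genes Oaz1 and Oaz2 and the antizyme inhibitor Azin2 fell in Lama4-/-. The list's median was 0.06 in WT and -0.10 in Lama4-/-, against 0.01 and -0.01 over all genes.

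Around Fyn, 11 Src family kinases and regulators were tested, and 4 rose and 1 fell in WT and 3 rose and 1 fell in Lama4-/-. Fgr and Lyn, kinases of myeloid cells, rose in both, Lyn by 0.86 ± 0.13 (SE) and 0.89 ± 0.13 (SE). Fgr went from 0.213 to 1.14 CPM in WT and from 0.180 to 1.87 CPM in Lama4-/-. Ptk2b, a calcium-responsive kinase that activates Src, fell in both. Around Traf3ip2, 12 genes of interleukin 17 receptor signalling were tested, and 4 rose in WT and 5 in Lama4-/-, with 0 lower. Il17ra, the shared receptor chain, rose by 0.99 ± 0.16 (SE) and 0.93 ± 0.16 (SE). Nfkbiz, a target of the pathway, rose by 1.11 ± 0.15 (SE) and 1.38 ± 0.15 (SE), and the ribonuclease gene Zc3h12a rose by 1.06 ± 0.26 (SE) and 1.30 ± 0.26 (SE). The leukocyte marker values above stand beside these rises too, and their part was not tested. The medians of the Src list were 0.02 and 0.16, and those of the interleukin 17 list 0.30 and 0.35.

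Around Slc16a10, 11 genes of thyroid hormone and aromatic amino acid transport and response were tested, and 1 rose and 3 fell in WT and 1 rose and 2 fell in Lama4-/-. Slc7a8, another transporter of neutral amino acids, rose in both. Slco1c1, a thyroxine transporter of brain capillaries, fell by 0.59 ± 0.15 (SE) and 0.57 ± 0.15 (SE), and the thyroid hormone receptor Thra fell by 0.37 ± 0.09 (SE) and 0.50 ± 0.09 (SE). Dio3, the deiodinase that inactivates thyroid hormone, fell from 2.70 to 1.17 CPM in WT (-1.22 ± 0.27, SE), and its Lama4-/- value was -0.60 ± 0.27 (SE). The list's median was -0.13 in WT and -0.18 in Lama4-/-. With the pool as a replicate block 1 was called higher and 4 lower in Lama4-/-.

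Of 14 genes of large ribosomal subunit assembly around Rpf2, 6 rose in each genotype and 0 fell. Rrs1, which works with Rpf2 on the 5S particle, rose by 0.35 ± 0.07 (SE) in WT and 0.37 ± 0.07 (SE) in Lama4-/-, Nop2 by 0.39 ± 0.07 (SE) and 0.40 ± 0.07 (SE), and Brix1 by 0.25 ± 0.07 (SE) and 0.43 ± 0.07 (SE). The list's medians were 0.25 and 0.22, and Rpf2 itself did not pass. Of 11 translesion synthesis genes around Rev3l, 1 rose in WT, the sliding clamp Pcna (0.31 ± 0.10, SE), and 2 in Lama4-/-, the polymerases Polh (0.40 ± 0.12, SE) and Polk (0.37 ± 0.12, SE). With the pool as a replicate block 3 were called higher in WT and 4 in Lama4-/-. The block called Polh and Polk in WT too, at adjusted p-values of 0.0415 and 0.0161, and Pcna in Lama4-/- at 0.0105. The medians were 0.19 and 0.20.

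Of the 6 other genes of the Mediator kinase module, 0 changed in WT by edgeR, DESeq2 or limma-voom, with 1 at an unadjusted p under 0.05 by each. Over all genes 4530, 4594 and 4511 of 15351 had such a p in WT by these tools. Med13, the subunit that links the module to Mediator, rose by 0.27 ± 0.09 (SE) in Lama4-/-, while its WT value was 0.06 ± 0.09 (SE). The fall of Cdk19 was thus not accompanied by a called fall of a module partner, and the medians were 0.00 and 0.05. Of 12 tubulin and centriole genes around Tube1, 0 changed in WT by edgeR or limma-voom and 1 by DESeq2, with 2 at an unadjusted p under 0.05 by each tool. In Lama4-/- the gamma-tubulins Tubg1 and Tubg2 fell, by 0.32 ± 0.08 (SE) and 0.40 ± 0.09 (SE). Tubg2 had -0.28 in WT and was called there, as 1 of the 12, with the pool as a replicate block (edgeR adjusted p = 0.0106). Of 17 genes of class I histone deacetylases and their complexes around Hdac2, Mta2 of the NuRD complex rose by 0.26 ± 0.06 (SE) in WT and 0.23 ± 0.06 (SE) in Lama4-/-. Mbd2, its methyl-CpG binding subunit, rose by 0.28 ± 0.08 (SE) in Lama4-/-, and its WT value was 0.25 ± 0.08 (SE), called at an edgeR adjusted p of 0.0216 with the pool as a replicate block. With that block 2 of the 17 were called higher in WT, and 3 higher and 1 lower in Lama4-/-. The interaction term was called for 0 of the 121 list genes by edgeR, DESeq2 and limma-voom, with 1, 0 and 0 of them at an unadjusted p under 0.05. Over all 15351 genes those counts were 244, 237 and 271.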

How the data were processed

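Bulk RNA-seq counts from 12 libraries were used: whole, unnormalized reads per gene, as deposited by the authors. Build mm10, STAR 2.6.0 and featureCounts 1.6.4 are named in the submitters' processing notes, beside FastQC 0.72, bcl2fastq and DESeq2. The labels name no strand setting and no annotation. Per the labels' protocols a single-cell 3' kit was used, although the tables hold bulk libraries. The kit is not settled, and with 3' reads the counts would not scale with gene length. The authors' deposited genotype comparisons hold log2 fold changes and p-values, per the file headers, and their log2 fold changes were copied where named. 48 further columns of per-sample values were not used.

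Counts were tested with edgeR 4.0.16 (TMM, filterByExpr, robust quasi-likelihood fit, Benjamini-Hochberg adjustment over all genes): 14958 genes contralaterally and 15208 ipsilaterally on the 6 libraries of a hemisphere, and 15351 genes on all 12 libraries for stroke and its interaction with genotype. CPM are TMM-scaled over 12 libraries, whose totals of 27537167 to 44113824 reads limit precision for genes under a few CPM. All 10 genes passed the filter on low counts. The scripts were tested on simulated counts. Alternatives were DESeq2 1.42.0, limma 3.58.1 (voom), RLE scaling, no filter, at least 50 reads in every library of a group, other sample sets, a replicate block and leaving out each library.

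Libraries carry replicate numbers in their names. Deviations from group means of same-numbered hemispheres of a genotype correlated at 0.109 to 0.337 in all 6 pairs, against -0.250 to 0.0300 for different numbers. Deviations of 3 libraries from their own mean offset each other, so these 2 ranges are not independent. That same-numbered hemispheres come from the same pool is thus an inference from the numbers and these values. The stroke and interaction fits carry no block, and every stroke value not named as blocked comes from them. The fit with the pool as a replicate block, which uses the inferred pairing, is an alternative. It is printed where it changes a call or moves a count of calls by more than 1.5 times. Libraries of a number between genotypes correlated at -0.0970 to 0.349, with a median of 0.152. Those of different numbers correlated at -0.409 to 0.343, with a median of -0.0829. These ranges overlap, so the genotypes were not taken as paired, and a shared effect of the number was not tested. P-values measure the spread between pools of 2 mice.

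The members and lists were chosen with earlier results of these data known. Outside the 10 genes and Lama4, the named genes are the nearest tested gene on each side, every gene within 2 Mb called in a comparison, up to 3 genes of each list with the lowest adjusted p among those called, and the 5 genes most like Ddo. A gene of the Src family list that this rule names is not reported here. Others were named after their values were seen: the other called genes of a list, Dio2, and the genes without overlap or past 0.4 on chromosome 10. So were Amd2, Gtf3c6 and the genes just outside 2 Mb. Positions and transcripts come from GENCODE M21 and promoters from RefSeq GRCm38.p6.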

Additional observations from a re-analysis of the deposited data

How the results depend on the processing

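Of the stroke and interaction values of the 10 genes under the alternatives, 532 kept their direction and their side of the threshold, 11 lost a call, 1 gained a call and 16 changed sign. The 260 genotype values, described without a test, moved by less than the spread between replicates, and the counts of genotype calls stand below. With libraries left out in turn, genotype values near 0 also changed sign. These were Hdac2 and Traf3ip2 in both hemispheres and Rev3l (-0.11 to 0.036), Tube1 (-0.13 to 0.084), Rpf2 and Slc16a10 ipsilaterally. The 16 stroke and interaction values that changed sign were differences of under 0.1 on the log2 scale in the main fit. Fyn in WT after stroke (0.00 in the main fit) was -0.0083 with RLE scaling and -0.0076 in DESeq2. With libraries left out in turn it ran from -0.027 to 0.040, and the interaction term ran from -0.075 to 0.17 for Ddo, -0.070 to 0.12 for Traf3ip2, -0.064 to 0.055 for Hdac2 and -0.074 to 0.016 for Rpf2. The cause was not tested. Of the 10 genes, contralateral genotype calls numbered 0 in the main fit, 1 without the filter, 1 on all 12 libraries and 2 in DESeq2, and ipsilateral ones 0, 1 on all 12 libraries and 2 in DESeq2. Over all genes the contralateral count was 2 in the main fit, 1 with the stricter filter, 17 in DESeq2 and 1 in limma-voom. The ipsilateral count was 1, 22 in DESeq2 and 3 on all 12 libraries.

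With the replicate number as a block, a pairing between genotypes that the check did not settle, 121 of all genes and 2 of the 10 were called contralaterally. Ipsilaterally that block called 4 of all genes. With the pool as a replicate block, WT stroke calls went from 2361 to 3608 and those in Lama4-/- from 3580 to 4906, and of the 10 genes the block changed the call of Amd1 in WT and no other. With each library left out, the counts over all genes ranged from 1 to 9 contralaterally, 1 to 5 ipsilaterally, 1347 to 2679 for stroke in WT, 2286 to 3618 for stroke in Lama4-/- and 0 to 1 for the interaction. The lowest WT and Lama4-/- stroke counts came without WT contralateral replicate 3 and without Lama4-/- ipsilateral replicate 1, and WT gave 1485 without its contralateral and 1561 without its ipsilateral replicate 2. Of the 10 genes, they ranged from 0 to 1, 0 to 0, 1 to 2, 2 to 3 and 0 to 0. Genes called near Lama4 after stroke numbered 3 within 2 Mb in WT, 1 within 1 Mb and 5 within 5 Mb, and 5, 1 and 11 in Lama4-/-. Of the 5 genes most like Ddo by Pearson correlation, 2 were among the 5 by Spearman correlation. Depth limits Slc16a10 and Tube1 most, at under 6 CPM.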

Other observations

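Mettl24, a predicted methyltransferase gene that starts just after the end of Ddo (chr10:40683282-40811083, plus strand), was chosen after its values were seen. It stood at 1.58, 1.58 and 1.26 CPM in ipsilateral WT and at 0.942, 0.960 and 0.552 CPM in ipsilateral Lama4-/- libraries, with no overlap, on 18 to 64 reads. Contralaterally the genotypes overlapped, at 0.955 to 1.24 CPM in WT and 0.779 to 1.27 CPM in Lama4-/-. It was not called in either hemisphere by edgeR.

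Col10a1, 4.57 Mb before Lama4, lay below its WT range in every Lama4-/- library, at 0.137 to 0.314 CPM against 0.376 to 0.740 CPM. Lama2, 11.3 Mb before Lama4, lay above it in every Lama4-/- library, at 19.6 to 23.5 CPM against 14.8 to 19.3 CPM. Ilvbl and Pym1, 39.5 and 89.6 Mb after Lama4, also lay above it. Ilvbl stood at 27.3 to 33.6 CPM against 23.9 to 26.5 CPM, and Pym1 at 17.5 to 21.3 CPM against 14.8 to 17.3 CPM.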
